A study of Homo sapiens with 32 samples.

Results

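The insulin-like growth factor genes described here were IGF2, its noncoding neighbour H19, the receptors IGF1R, IGF2R and INSR, the receptor substrates IRS1, IRS2 and IRS4, and the binding proteins IGFBP2 and IGFBP4. They were taken by gene symbol from the 3 deposited count tables, and each of the 10 matched 1 of the 62703 identifiers.
The cells were HEK293T, an established human embryonic kidney line, grown without further treatment. In the knockouts, IGF2BP1, IGF2BP2 or IGF2BP3 had been disrupted by transient CRISPR plasmids carrying several guides and GFP, and a single clone grown from 1 sorted GFP-positive cell stood for each gene. The control, wild type at the 3 genes, had received a guide with no mammalian target; whether it was a clone or a pool is not stated.
Poly(A) RNA of 32 libraries was sequenced. Total, nuclear and cytoplasmic RNA each had 4 control libraries (batches 1 to 4), 2 of the IGF2BP1 knockout (batches 1 and 2), 2 of the IGF2BP2 knockout and 2 of the IGF2BP3 knockout (both in batches 3 and 4). A further 2 cytoplasmic IGF2BP3 knockout libraries formed batch 5, which held no control. Control replicates 1 to 4 are batches 1 to 4, replicates 1 and 2 of the IGF2BP2 and IGF2BP3 knockouts are batches 3 and 4, and cytoplasmic replicates 3 and 4 of the latter are batch 5. The p-values measure the spread between libraries, which each fit estimated over all its libraries and not between clones. Since a knockout is 1 clone, an effect of the edited gene and one of the clone cannot be told apart.

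IGF2 is a growth factor of fetal tissue that signals through IGF1R and, in fetal cells, through a form of the insulin receptor INSR. IGF2R, the cation-independent mannose 6-phosphate receptor, takes IGF2 up and delivers it to lysosomes without a growth signal. The binding proteins hold the growth factors outside the cell, and the insulin receptor substrates carry the signal from the receptor to the PI3K and RAS branches. IGF2 and H19 are imprinted neighbours on 11p15 that share enhancers, with IGF2 expressed from the paternal and H19 from the maternal copy in most tissues. The IGF2BP proteins, oncofetal RNA-binding proteins, were named for their binding to IGF2 mRNA, and H19 is another described ligand. The comparisons ask how the RNAs of this pathway differed in each knockout and in each cell fraction.

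Library totals ran from 13689067 to 26119480 counts. Replicate 2 in total RNA and replicate 1 in nuclear RNA of the IGF2BP1 knockout held the same counts, with 0 of 62703 identifiers differing, so this knockout's results in total and nuclear RNA are given with and without this shared library. Which of the 2 RNA kinds that library came from is not known. One of its 2 uses may thus rest on RNA of the other kind. Cytoplasmic RNA does not contain that library. Without it, 1 library of this knockout remains in total and in nuclear RNA, set against the control of its batch. Such values rest on that 1 pair, and any test of them takes its spread from other libraries. IGF2BP1 RNA in total libraries was 424 to 501 CPM (counts scaled to library size with TMM factors) in the control and 25.1 to 28 in its own knockout. IGF2BP2 RNA was 78.6 to 111 CPM in the control and 32.1 to 32.7 in its knockout, and IGF2BP3 RNA was 85.4 to 92.3 and 39.8 to 40.9 CPM. All 5 markers that HEK293 cells express were detected in every library. Their summed total RNA level was 280.4 to 310.0 CPM in the control and 229.6 to 254 CPM in the IGF2BP1 knockout. It was 278 to 288 CPM in the IGF2BP2 and 135 to 141 CPM in the IGF2BP3 knockout. NEFM, a neurofilament gene, was 31.8 to 35.6 CPM in the latter against 191 to 217 in the control. NEFL was lower there too, at 40.0 to 41.1 against 52.1 to 55.8 CPM. PAX2 (6.63 to 7.36 against 2.66 to 3.69) and LHX1 (7.26 to 7.45 against 2.45 to 3.92) were higher there. So was INA (48.5 to 50.4 against 29.5 to 35.3). The 6 markers of mature kidney summed to at most 1.59 CPM and the 4 blood markers to at most 0.927 CPM in any library, with UMOD and HBB at 0 counts throughout. The 4 nuclear RNA markers MALAT1, NEAT1, KCNQ1OT1 and MEG3 (MEG3 at or near 0) summed to 138 to 161 CPM in control cytoplasm, 175 to 178 in the IGF2BP1, 591 to 608 in the IGF2BP2 and 275 to 702 in the IGF2BP3 knockout. The same sum in nuclear RNA was 284 to 374, 267 to 345, 484 to 527 and 904 to 1039 CPM, and the part of these shifts in the results below was not tested. The 4 cytoplasmic RNA markers were RPLP0, RPS3, EEF1A1 and TPT1. They summed to 9312 to 10915 CPM in control cytoplasm and 6798 to 7769 in control nuclear RNA. In the IGF2BP1 knockout these sums were 8404 to 8481 and 8018 to 8187 CPM, the latter with the shared library. They were 8567 to 8700 and 7399 to 7568 CPM in the IGF2BP2 and 7897 to 8485 and 5704 to 6165 in the IGF2BP3 knockout. Their part in the results was not tested either.

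The H19 transcript is also the precursor of miR-675. Its mature strands (RefSeq, GRCh38.p14, minus strand) are shown because they are the best described product of H19 RNA, with the seed, bases 2 to 8, in capitals. The 5p strand lies at chr11:1996800-1996822 and the 3p strand at chr11:1996768-1996787, both within the annotated H19 gene.
miR-675-5p: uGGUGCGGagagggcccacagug
miR-675-3p: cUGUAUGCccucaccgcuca
The 2 strands carry different seeds. Of 2370 mature human miRNA names in the RefSeq table, 2 had the 5p seed, itself included, and 1 had the 3p seed. The miRNA itself is not measured by poly(A) libraries, and the separate identifier of its hairpin had 0 counts in every library.

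IGF2, IGFBP4 and IRS2 were the members that were higher in both the IGF2BP2 and the IGF2BP3 knockout in all 3 RNA kinds (values below). The RefSeq promoter table held entries for 9 of the 10 genes, IGF2 not among them, so the 250 bases before the annotated start of the other 2 are printed, 5′ to 3′ along the gene. Capitals mark a TATA box, written TATAAA, a GC box, written GGGCGG, and a CCAAT box, on either strand. IGFBP4 is at chr17:40443200-40443449, plus strand, and IRS2 at chr13:109786584-109786833, minus strand.
IGFBP4: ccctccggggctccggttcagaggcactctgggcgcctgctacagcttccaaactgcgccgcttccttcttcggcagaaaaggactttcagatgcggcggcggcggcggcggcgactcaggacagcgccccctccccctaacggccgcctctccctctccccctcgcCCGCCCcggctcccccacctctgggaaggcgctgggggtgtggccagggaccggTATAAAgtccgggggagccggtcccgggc
IRS2: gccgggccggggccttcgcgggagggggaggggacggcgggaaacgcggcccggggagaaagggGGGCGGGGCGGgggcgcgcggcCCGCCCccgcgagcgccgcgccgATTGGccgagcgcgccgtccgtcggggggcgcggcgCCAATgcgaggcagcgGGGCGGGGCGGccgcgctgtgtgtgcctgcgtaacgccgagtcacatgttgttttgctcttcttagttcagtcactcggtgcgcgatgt
The IGFBP4 window held 1 TATA box, 1 GC box and 0 CCAAT boxes. The IRS2 window held 0 TATA boxes, 5 GC boxes, some overlapping by a base, and 2 CCAAT boxes. Among all 35116 windows of that length, 10.7% held a TATA box, 42.6% a GC box and 32% a CCAAT box on either strand. The G and C share was 71.6% for IGFBP4 and 76.4% for IRS2, against a median of 58.0% over all windows. Both windows held a GC box and they differed in the other 2 motifs; a match describes the letters and is no evidence of binding.

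Control cells held very unequal amounts of these RNAs. Levels are compared between genes as CPM per kb of exon (GENCODE 29 exon union). IRS4 was the most abundant member by far in total RNA, at 683 ± 30.9 CPM per kb (SD, n = 4). IGF2R followed at 18.2 ± 1.09 CPM per kb, and then IGFBP2 at 12.1 ± 0.315 and IGF1R at 8.34 ± 1.24 CPM per kb. INSR stood at 4.17 ± 0.375 CPM per kb and IGFBP4 at 2.08 ± 0.325. IRS1 (1.31 ± 0.125 CPM per kb) and IRS2 (1.25 ± 0.197) had overlapping library ranges. The lowest levels per kb were those of IGF2 (0.293 ± 0.081) and H19 (0.191 ± 0.0607), whose ranges also overlapped; no other neighbours in this order did. In the cytoplasm the order changed at 2 places: IGFBP2 (13.9 ± 0.825 CPM per kb) stood above IGF2R (7.92 ± 0.512), and IRS2 (1.01 ± 0.0948) above IRS1 (0.858 ± 0.0534). The means in control nuclear RNA changed order at the same places. IGFBP2 was at 15.9 and IGF2R at 13.4 CPM per kb there, and IRS2 at 0.997 and IRS1 at 0.856. Library ranges of IRS2 and IRS1 overlapped in both fractions, and those of IGFBP2 and IGF2R in nuclear RNA only.

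**Figure D1:**
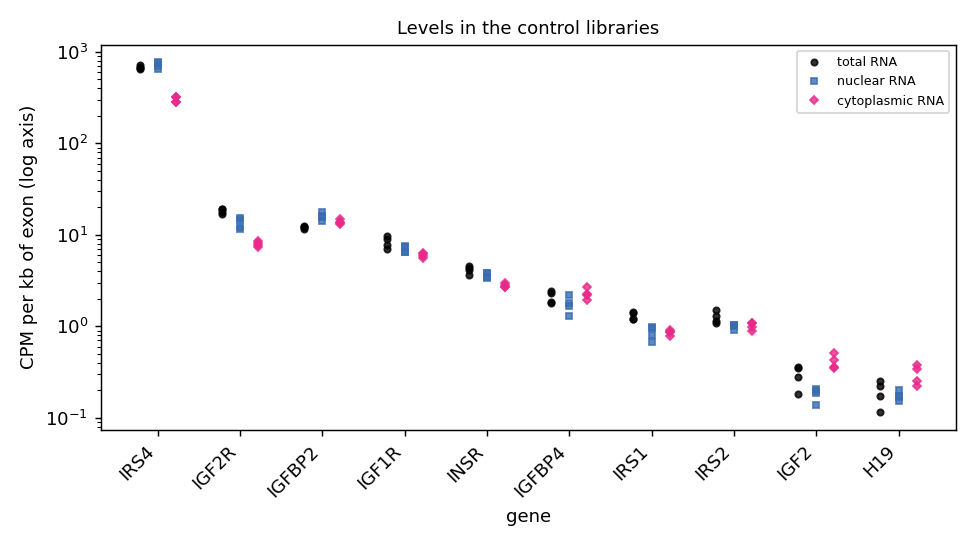
Levels of the 10 genes in the control libraries, as CPM per kb of exon on a log axis, ordered by total RNA. Each point is 1 library (n = 4 per RNA kind). IRS4 stands far above the others, and IGF2 and H19 are the lowest.

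All 10 genes passed the filter on low counts in each RNA kind. In nuclear RNA H19 did so through the knockouts, since 1 of 4 control libraries reached the cutoff where 2 libraries were needed. In total RNA 2 of 4 control libraries reached it. A gene was called where the edgeR quasi-likelihood test, with a term for batch, gave a Benjamini-Hochberg adjusted p under 0.05 over all genes tested. In total RNA, 4 of 10 members passed in the IGF2BP1 knockout (1 higher and 3 lower), where 24.2% of all tested genes were called (10.7% higher, 13.5% lower). The IGF2BP2 knockout had 8 members called (6 higher and 2 lower), against 47% of all genes (23.3% and 23.7%). The IGF2BP3 knockout had 4 (3 higher and 1 lower), against 46.9% (23.5% and 23.4%), so its share of members was close to that of all genes.
In nuclear RNA the counts were 5 (2 higher, 3 lower) in the IGF2BP1 knockout against 25.7% of all genes (12.7% higher and 13% lower). They were 6 (5 and 1) in the IGF2BP2 knockout against 49.7% (24.8% and 24.9%), and 5 (4 and 1) in the IGF2BP3 knockout against 50.4% (25.1% and 25.3%). In cytoplasmic RNA 4 members passed in the IGF2BP1 knockout (1 higher, 3 lower), where 44.4% of all genes were (22.5% and 21.9%). The IGF2BP2 knockout had 9 (7 and 2) beside 64.2% (30.9% and 33.2%), and the IGF2BP3 knockout 8 (4 and 4) beside 64.7% (31.5% and 33.2%). Median log2 changes over the 10 members in total, nuclear and cytoplasmic RNA were -0.28, -0.13 and -0.03 when IGF2BP1 was knocked out. With IGF2BP2 knocked out they were 0.41, 0.47 and 0.68. With IGF2BP3 knocked out they were 0.22, 0.34 and -0.01; over all tested genes the medians were between 0.0045 and 0.025. Without the shared library, 3 members stayed called in total RNA of the IGF2BP1 knockout (0 higher, 3 lower) and 4 in nuclear RNA (2 higher, 2 lower). In total and nuclear RNA a fit without 1 library of a knockout leaves 1 library of it. Counts from such fits only describe how far single libraries matter. Single libraries moved some counts by over 1.5 times. The IGF2BP1 count in total RNA was 7 without control replicate 1 or without IGF2BP1 knockout replicate 1, and in nuclear RNA 3 without control replicate 2 or without IGF2BP1 knockout replicate 2. The IGF2BP2 count in total RNA was 4 without IGF2BP2 knockout replicate 2 and 5 without control replicate 4 or without IGF2BP2 knockout replicate 1. Upper quartile scaling moved the median of all genes to 0.12 and 0.15 in total RNA where IGF2BP2 or IGF2BP3, respectively, was knocked out and to 0.16 and 0.19 in their cytoplasmic RNA. With it, the IGF2BP3 split became 5 higher and 0 lower in total RNA, and 5 higher and 2 lower in the cytoplasm.

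**Figure D2:**
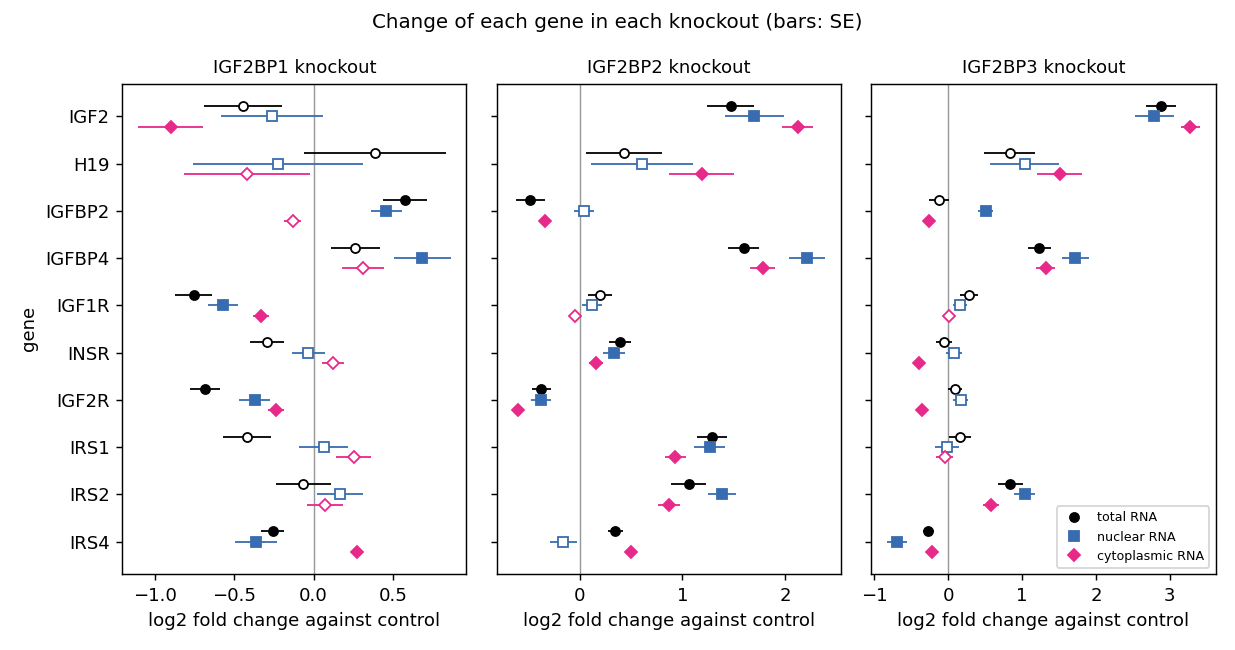
Log2 fold changes of the 10 genes against control in the IGF2BP1, IGF2BP2 and IGF2BP3 knockouts (panels; x axes differ in range), with the SE as a bar. Circles are total, squares nuclear and diamonds cytoplasmic RNA, and filled symbols passed the edgeR test. IGF2 lies to the right in the IGF2BP2 and IGF2BP3 knockouts, furthest in the latter, and IGF1R is filled, and to the left, in the IGF2BP1 panel and open in the other 2.

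IGF2 (ENSG00000167244, chromosome 11, 2129112 to 2149603, minus strand; GENCODE 29, GRCh38) was higher in the IGF2BP2 knockout and higher still in the IGF2BP3 knockout, in all 3 RNA kinds, and lower in cytoplasmic RNA of the IGF2BP1 knockout. In total RNA the 4 control libraries held 2.51, 2.44, 1.94 and 1.29 CPM, from 21 to 55 counts. The IGF2BP1 knockout held 2.07 and 1.56 CPM, within the control range. The IGF2BP2 knockout held 4.51 and 4.61 CPM and the IGF2BP3 knockout 11.3 and 13.1 CPM, from 305 and 286 counts. Every library of these 2 knockouts was above every control, and the 2 knockouts did not overlap. In bulk RNA more cells with IGF2 transcripts and more transcripts per cell cannot be told apart. The log2 fold change in total RNA was 1.47 ± 0.23 (SE, edgeR adjusted p = 0.000201) in the IGF2BP2 knockout and 2.88 ± 0.20 (SE, edgeR adjusted p = 3.0e-07) in the IGF2BP3 knockout, which is 2.77-fold and 7.38-fold. It was -0.45 ± 0.25 (SE, edgeR adjusted p = 0.211) in the IGF2BP1 knockout and was not called, with -0.27 without the shared library and -0.65 without the other.

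Nuclear IGF2 RNA was 1.45, 1.37, 1.31 and 0.954 CPM in the controls, 1.56 and 0.852 in the IGF2BP1, 3.58 and 3.89 in the IGF2BP2 and 7.75 and 8.24 CPM in the IGF2BP3 knockout. The order of the groups was that of total RNA. The log2 changes were 1.70 ± 0.29 (SE, edgeR adjusted p = 3.2e-06) and 2.79 ± 0.26 (SE, edgeR adjusted p = 2.0e-12) in the IGF2BP2 and IGF2BP3 knockouts, and -0.26 ± 0.32 (SE, edgeR adjusted p = 0.604) in the IGF2BP1 knockout. The 2 libraries of the latter differed in sign, with -0.68 without the shared library and 0.10 without the other, neither called. In the cytoplasm the controls held 2.97, 3.56, 2.53 and 2.47 CPM and both IGF2BP1 knockout libraries lay below them, at 1.58 and 1.91 CPM (32 and 36 counts). That fall had a log2 fold change of -0.90 ± 0.21 (SE, edgeR adjusted p = 0.000479); with no batch term it was -0.74 (edgeR adjusted p = 0.334) and not called. Cytoplasmic IGF2 was 10.9 and 10.9 CPM in the IGF2BP2 knockout (log2 2.12 ± 0.15 SE, edgeR adjusted p = 1.8e-14). It was 23.7 and 24.8 CPM in batches 3 and 4 of the IGF2BP3 knockout (log2 3.28 ± 0.13 SE, edgeR adjusted p = 2.9e-21, or 9.7-fold) and 8.42 and 9.74 CPM in batch 5. The batch 5 libraries were above every control but below the IGF2BP2 knockout. The increases of IGF2 in both knockouts kept their call in every alternative run, including each library left out.

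The IGF2 values carry a limit of annotation. In GENCODE 29, 73.7% of the IGF2 exon bases also belong to another gene on the same strand, among them the readthrough gene INS-IGF2, and INS-IGF2 had 0 counts in every library. How reads in shared exons were counted is not given in the sources used here, so the absolute level of IGF2 is uncertain, while the same counting applied to every library. IGF2-AS, the antisense gene, had 0 to 12 counts per library.

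**Figure D3:**
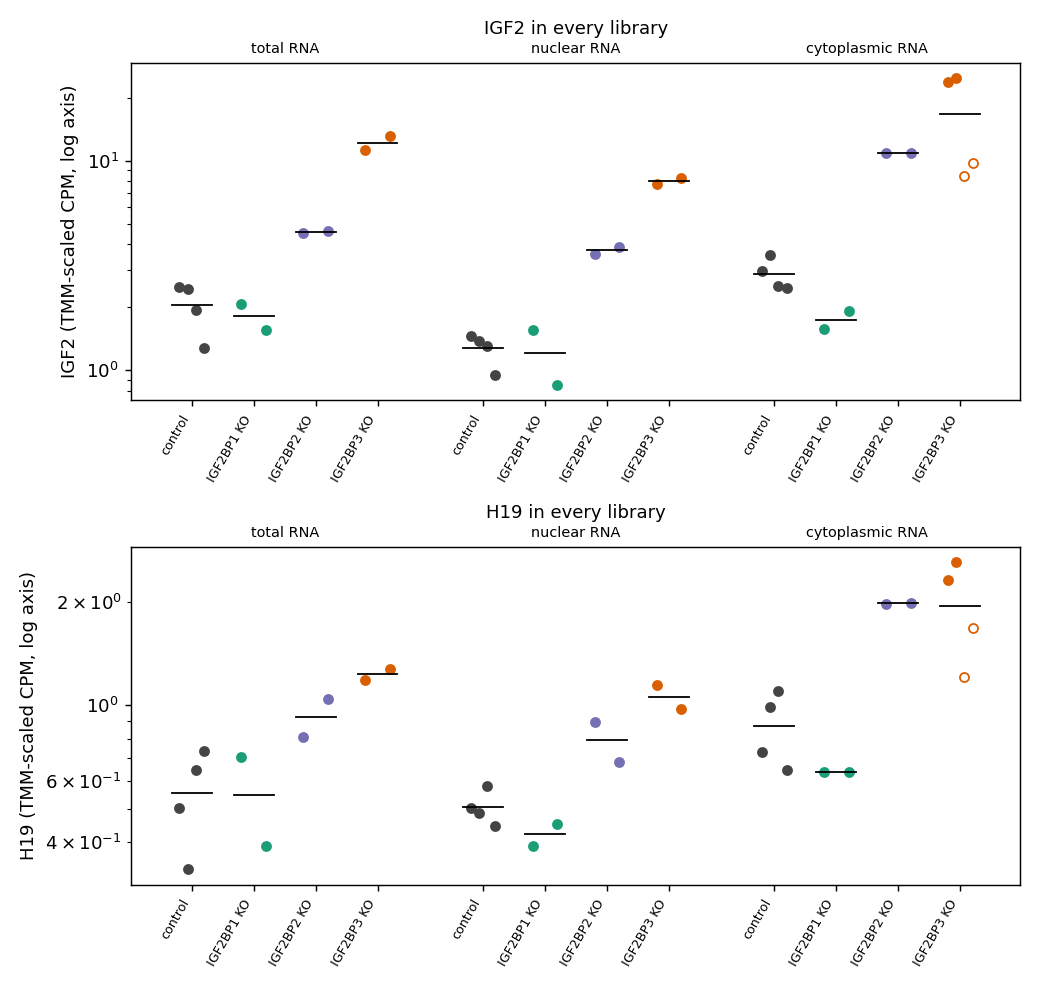
IGF2 (top) and H19 (bottom) in every library, as TMM-scaled CPM on log axes, by genotype within total, nuclear and cytoplasmic RNA. Filled points are libraries of batches 1 to 4, open points are batch 5, and lines are group means. All IGF2BP2 and IGF2BP3 knockout libraries lie above the controls for IGF2, and the open points lie below the other IGF2BP3 knockout libraries for both genes.

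H19 (ENSG00000130600, chromosome 11, 1995176 to 2001470, minus strand), a noncoding RNA, was higher in the cytoplasm of the IGF2BP2 and IGF2BP3 knockouts. Its counts were low, from 6 to 76 per library. Cytoplasmic H19 was 0.73, 0.99, 1.1 and 0.648 CPM in the controls, from 11 to 20 counts. It was 0.64 and 0.638 CPM in the IGF2BP1 and 1.97 and 1.99 CPM in the IGF2BP2 knockout, and 2.31 and 2.61 CPM in batches 3 and 4 of the IGF2BP3 knockout. The last 2 groups lay above every control, as did the batch 5 libraries at 1.21 and 1.68 CPM. The log2 fold change was 1.19 ± 0.32 (SE, edgeR adjusted p = 0.00139) in the IGF2BP2 knockout, lost without control replicate 4 (log2 0.80, edgeR adjusted p 0.0858), and 1.51 ± 0.30 (SE, edgeR adjusted p = 4.6e-05) in the IGF2BP3 knockout. In total RNA the controls held 6 to 13 H19 counts, the IGF2BP2 knockout 14 and 26 and the IGF2BP3 knockout 32 and 28. No total or nuclear comparison was called for H19. The largest total RNA change was 0.84 ± 0.35 (SE, edgeR adjusted p = 0.0628) in the IGF2BP3 knockout, and it passed the test without control replicate 1 or 2, with upper quartile normalization, with no batch term or in a fit of only the batches of the knockout (log2 0.83 to 1.15, edgeR adjusted p 0.0095 to 0.0468). In nuclear RNA the controls held 7 to 12 H19 counts and the IGF2BP3 knockout 20 to 23. The log2 change was 1.04 ± 0.46 (SE) there. H19 passed the filter in nuclear RNA through the knockouts, so this value only describes the libraries and no p is given. In the IGF2BP1 knockout the H19 values were 0.39 ± 0.45, -0.22 ± 0.54 and -0.42 ± 0.40 (log2, total, nuclear and cytoplasmic) without a call, and the low counts limit what could be detected. Without the shared library the H19 values were 0.49 in total and -0.10 in nuclear RNA.

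Of the binding proteins, IGFBP4 rose in the IGF2BP2 and IGF2BP3 knockouts in all 3 RNA kinds, while IGFBP2 moved by less and in a direction that depended on the fraction. IGFBP4 (ENSG00000141753, chromosome 17, 40443461 to 40457731, plus strand) inhibits IGF action until proteases of the pappalysin family cut it. Its total RNA was 5.06, 5.32, 4.02 and 3.92 CPM in the controls, 5.5 and 7.05 in the IGF2BP1, 11.6 and 12.5 in the IGF2BP2 and 9.08 and 9.69 CPM in the IGF2BP3 knockout. All knockout libraries were above the controls in this and both other RNA kinds. The log2 changes were 1.60 ± 0.15, 2.21 ± 0.18 and 1.78 ± 0.12 (SE; total, nuclear, cytoplasmic) in the IGF2BP2 knockout, with edgeR adjusted p of 3.7e-06, 1.9e-14 and 6.7e-15. In the IGF2BP3 knockout they were 1.24 ± 0.15, 1.72 ± 0.18 and 1.32 ± 0.13, with adjusted p of 2.9e-05, 5.3e-11 and 3.8e-11. In these 6 comparisons the call was kept in every alternative. For IGFBP4 in the IGF2BP1 knockout only nuclear RNA was called, at 0.69 ± 0.18 (SE, edgeR adjusted p = 0.00313). Without the shared library the change was 0.84. The call was lost without control replicate 2 or without IGF2BP1 knockout replicate 2 (log2 0.54). Its total RNA change there was 0.26 ± 0.15, and 0.12 without the shared library.

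IGFBP2 (ENSG00000115457, chromosome 2, 216632828 to 216664436, plus strand), the most abundant binding protein gene among the members, rose in total RNA of the IGF2BP1 knockout by a log2 value of 0.58 ± 0.14 (SE, edgeR adjusted p = 0.0092). Its 2 libraries there were far apart, at 68.7 and 112 CPM beside 55.8 to 59.4 CPM in the controls, and the higher is the library shared with nuclear RNA. Without it the change was 0.22 (edgeR adjusted p = 0.107) and was lost, as it was without control replicate 2 (edgeR adjusted p = 0.0995); without the other knockout library or control replicate 1 it was 0.93 and 0.94. Nuclear IGFBP2 rose by 0.46 ± 0.10 (SE, edgeR adjusted p = 0.000275) in the IGF2BP1 knockout, and by 0.51 without the shared library. In the IGF2BP3 knockout it rose by 0.51 ± 0.10 (SE, edgeR adjusted p = 2.5e-05). Both knockouts had nuclear libraries above all controls (67.6 to 84.2 CPM), at 112 and 96.3 and 112 and 102 CPM. Cytoplasmic IGFBP2 fell in the IGF2BP2 knockout (log2 -0.34 ± 0.06 SE, edgeR adjusted p = 3.8e-06). It also fell in the IGF2BP3 knockout (log2 -0.25 ± 0.06 SE, edgeR adjusted p = 0.000178; -0.17 without control replicate 4), a call lost with upper quartile normalization or with no batch term (log2 -0.16 to -0.09, edgeR adjusted p 0.0839 to 0.178). In total RNA of the IGF2BP2 knockout it fell by 0.48 on the log2 scale (SE 0.14, edgeR adjusted p = 0.0134), a call lost without control replicate 3 or 4 or without IGF2BP2 knockout replicate 1 or 2 (log2 -0.54 to -0.45, edgeR adjusted p 0.0711 to 0.135).

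Among the receptors, IGF1R fell in the IGF2BP1 knockout and IGF2R fell in the IGF2BP1 and IGF2BP2 knockouts, in all 3 RNA kinds. IGF1R (ENSG00000140443, chromosome 15, 98648539 to 98964530, plus strand), the signalling receptor for IGF1 and IGF2, was 125, 136, 108 and 96.8 CPM in total RNA of the controls and 85.2 and 69.5 CPM in the IGF2BP1 knockout. Its log2 changes there were -0.76 ± 0.12 (SE, edgeR adjusted p = 0.000584) in total, -0.57 ± 0.09 (SE, edgeR adjusted p = 6.7e-06) in nuclear and -0.33 ± 0.05 (SE, edgeR adjusted p = 1.8e-06) in cytoplasmic RNA. In each fraction both knockout libraries lay below every control. Without the shared library the changes were -0.55 in total RNA and -0.57 in nuclear RNA, each from 1 pair of libraries. In the IGF2BP2 and IGF2BP3 knockouts IGF1R differed from control by -0.04 to 0.28 on the log2 scale with no call. Some alternatives did call it there: in the IGF2BP3 knockout, total RNA passed without control replicate 1 or 2, with upper quartile normalization or in a fit of only the batches of the knockout (log2 0.28 to 0.41, edgeR adjusted p 0.000527 to 0.00939), and the test of a difference between the IGF2BP1 and the other knockouts was not run.

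IGF2R (ENSG00000197081, chromosome 6, 159969099 to 160113507, plus strand) in total RNA was 338, 341, 319 and 299 CPM in the controls, 226 and 197 in the IGF2BP1, 228 and 250.5 in the IGF2BP2 and 316 and 345 CPM in the IGF2BP3 knockout. The first 2 knockouts were below every control and the third was not. The log2 changes with IGF2BP1 knocked out were -0.69 ± 0.09 (SE, edgeR adjusted p = 0.000223) in total RNA, -0.37 ± 0.10 (SE, edgeR adjusted p = 0.00364) in nuclear RNA and -0.24 ± 0.05 (SE, edgeR adjusted p = 0.000195) in cytoplasmic RNA. Without the shared library the total change was -0.57, from 1 pair of libraries. The nuclear call was lost without control replicate 1, without IGF2BP1 knockout replicate 1 or with no batch term (log2 -0.29 to -0.22, edgeR adjusted p 0.0511 to 0.174), and the cytoplasmic call with no batch term (log2 -0.17, edgeR adjusted p 0.233). In the IGF2BP2 knockout they were -0.37 ± 0.09 (SE, edgeR adjusted p = 0.00538), -0.38 ± 0.10 (SE, edgeR adjusted p = 0.00158) and -0.60 ± 0.05 (SE, edgeR adjusted p = 3.8e-12). The cytoplasmic libraries there, at 88.5 and 88.9 CPM, were below all controls (131 to 152 CPM). The total RNA call was lost without control replicate 3 or without IGF2BP2 knockout replicate 1 or 2 (log2 -0.43 to -0.27, edgeR adjusted p 0.0515 to 0.14), and the nuclear one without control replicate 3 or without IGF2BP2 knockout replicate 2 (log2 -0.32, edgeR adjusted p 0.0757 to 0.125). The IGF2BP3 knockout had a cytoplasmic call (log2 -0.36 ± 0.05 SE, edgeR adjusted p = 2.0e-07) and 0.10 ± 0.09 in total and 0.17 ± 0.10 in nuclear RNA, neither called.

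INSR (ENSG00000171105, chromosome 19, 7112255 to 7294034, minus strand), the insulin receptor, rose in the IGF2BP2 knockout by 0.39 ± 0.11 (SE, edgeR adjusted p = 0.00895) in total, 0.34 ± 0.11 (SE, edgeR adjusted p = 0.00728) in nuclear and 0.16 ± 0.07 (SE, edgeR adjusted p = 0.0402) in cytoplasmic RNA. Total RNA held 52.1 and 54.8 CPM there and 45.7, 47.3, 43 and 38.4 CPM in the controls, without overlap. Each call depended on single libraries. The total RNA call was lost without control replicate 4 or without IGF2BP2 knockout replicate 1 or 2 (log2 0.26 to 0.44, edgeR adjusted p 0.0726 to 0.218), the nuclear call without control replicate 4, without IGF2BP2 knockout replicate 1 or with DESeq2 (log2 0.17 to 0.34, edgeR or DESeq2 adjusted p 0.0513 to 0.419), and the cytoplasmic call without control replicate 3 or 4, without IGF2BP2 knockout replicate 1 or 2, with DESeq2, with no filter on low counts or with no batch term (log2 0.14 to 0.21, edgeR or DESeq2 adjusted p 0.0523 to 0.197); nuclear INSR was 0.52 without control replicate 3. Cytoplasmic INSR fell in the IGF2BP3 knockout by 0.39 on the log2 scale (SE 0.07, edgeR adjusted p = 1.3e-05), from 28.2 to 31 CPM in the controls to 23, 22.8, 19.4 and 20.0 CPM, a call kept in every alternative. No call was made in the IGF2BP1 knockout for INSR, at -0.29, -0.03 and 0.12 on the log2 scale, and -0.19 in total and 0.07 in nuclear RNA without the shared library. The total RNA value passed without control replicate 1 or without IGF2BP1 knockout replicate 1 (log2 -0.40 to -0.39, edgeR adjusted p 0.00338 to 0.00377).

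The receptor substrates differed from each other: IRS2 rose in the IGF2BP2 and IGF2BP3 knockouts, IRS1 in the IGF2BP2 knockout, and IRS4 moved by less and differently in nucleus and cytoplasm. IRS1 (ENSG00000169047, chromosome 2, 226731317 to 226799759, minus strand) in total RNA was 13.9, 14.4, 12 and 12 CPM in the controls, 12.7 and 8.56 in the IGF2BP1, 26.4 and 32.4 in the IGF2BP2 and 13.1 and 13.7 CPM in the IGF2BP3 knockout. The IGF2BP2 knockout stood above all controls in each RNA kind. Its log2 changes were 1.29 ± 0.14 (SE, edgeR adjusted p = 1.5e-05), 1.26 ± 0.15 (SE, edgeR adjusted p = 1.6e-09) and 0.93 ± 0.10 (SE, edgeR adjusted p = 1.4e-09) in total, nuclear and cytoplasmic RNA, kept in every alternative. In the IGF2BP3 knockout the IRS1 log2 values were 0.16, -0.02 and -0.04 with no call. In total RNA of the IGF2BP1 knockout the change was -0.42 ± 0.15 (SE, edgeR adjusted p = 0.0606), with -0.12 without the shared library and -0.75 without the other library of that knockout. It passed the test without control replicate 1, without IGF2BP1 knockout replicate 1 or with no filter on low counts (log2 -0.75 to -0.43, edgeR adjusted p 0.000332 to 0.0363). Nuclear IRS1 was at 0.06 ± 0.16 there, and at 0.30 without the shared library and -0.19 without the other, with no call.

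IRS2 (ENSG00000185950, chromosome 13, 109752698 to 109786568, minus strand), the substrate described in control of glucose metabolism, was 10.4, 12.4, 9.19 and 8.81 CPM in total RNA of the controls, 13.1 and 8.8 in the IGF2BP1, 17.5 and 20.3 in the IGF2BP2 and 14.6 and 18 CPM in the IGF2BP3 knockout. In all 3 RNA kinds the latter 2 knockouts lay above every control. Log2 changes in the IGF2BP2 knockout were 1.06 ± 0.17, 1.38 ± 0.14 and 0.87 ± 0.11 (SE; total, nuclear, cytoplasmic; edgeR adjusted p = 0.000249, 1.1e-11 and 9.0e-09). In the IGF2BP3 knockout they were 0.84 ± 0.17, 1.03 ± 0.14 and 0.58 ± 0.11 (edgeR adjusted p = 0.00134, 2.0e-08 and 1.8e-05). The one call of these 6 that an alternative ended was total RNA of the IGF2BP3 knockout, without control replicate 4 (log2 0.69, edgeR adjusted p 0.0541). In the IGF2BP1 knockout the IRS2 values were -0.06 ± 0.17, 0.17 ± 0.15 and 0.07 ± 0.11 in the same order. In total RNA its 2 libraries differed in sign, with 0.33 (edgeR adjusted p = 0.136) without the shared library and a call without control replicate 1 or without IGF2BP1 knockout replicate 1 (log2 -0.50 to -0.49, edgeR adjusted p 0.0187 to 0.0194). Nuclear IRS2 was 0.11 without the shared library. The nuclear change was the largest of the 3 in both knockouts, but the shift of the nuclear against the cytoplasmic level did not pass the test (0.47 ± 0.17 SE, edgeR adjusted p = 0.0532 and 0.39 ± 0.17 SE, edgeR adjusted p = 0.156, log2).

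**Figure D4:**
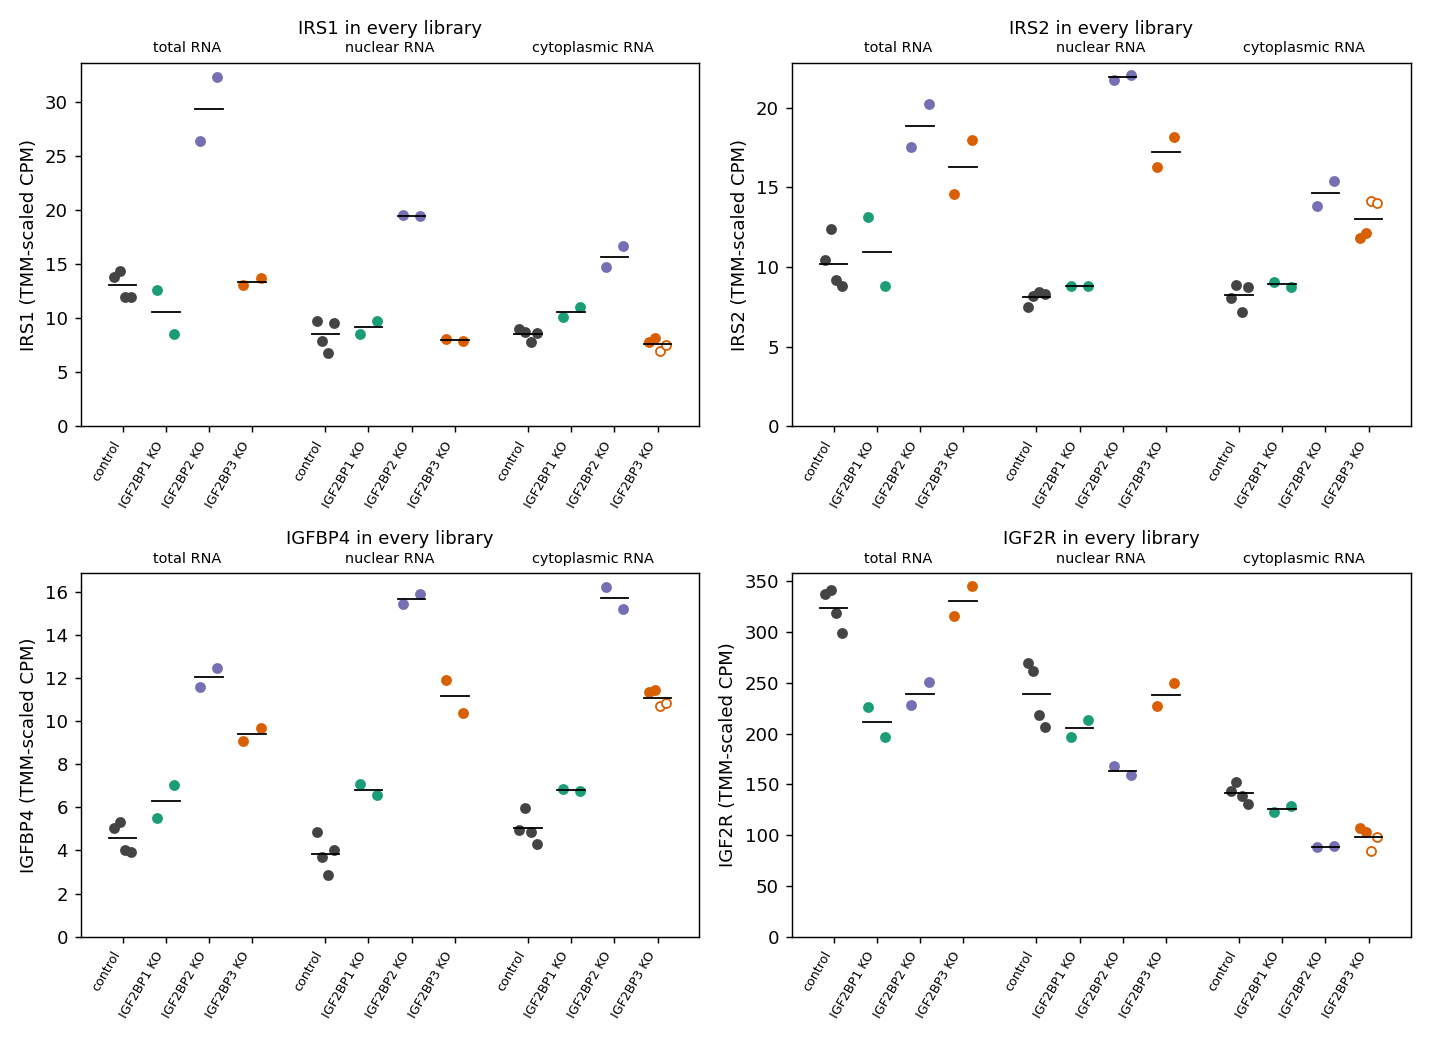
IRS1, IRS2, IGFBP4 and IGF2R in every library, as TMM-scaled CPM on linear axes from 0, by genotype within each RNA kind. Open points are batch 5 and lines are group means. IRS2 and IGFBP4 are above the controls in all IGF2BP2 and IGF2BP3 knockout libraries, while IRS1 is above them in all IGF2BP2 knockout libraries.

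IRS4 (ENSG00000133124, chromosome X, 108732482 to 108736409, minus strand), a substrate expressed in few tissues and first described in HEK293 cells, fell in total and nuclear RNA of the IGF2BP1 knockout and rose in its cytoplasm. Total RNA held 2614, 2709.9, 2838 and 2562 CPM in the controls, 2203 and 2245 in the IGF2BP1, 3473 and 3398 in the IGF2BP2 and 2225 and 2244 CPM in the IGF2BP3 knockout. The IGF2BP2 knockout was above and the other 2 were below every control. Cytoplasmic RNA held 1276, 1250.1, 1117 and 1115 CPM in the controls, 1538 and 1521 in the IGF2BP1, 1535 and 1613 in the IGF2BP2 and 997 and 928 CPM in batches 3 and 4 of the IGF2BP3 knockout. Reads of AL035425.1, an overlapping gene on the other strand, came to 114 to 499 counts per library. Log2 changes in the IGF2BP1 knockout were -0.26 ± 0.07 (SE, edgeR adjusted p = 0.0239) in total, -0.36 ± 0.13 (SE, edgeR adjusted p = 0.0394) in nuclear and 0.28 ± 0.04 (SE, edgeR adjusted p = 1.3e-07) in cytoplasmic RNA. The total RNA call was lost with upper quartile normalization, with DESeq2 or in a fit of only the batches of the knockout. There the change was -0.25 to -0.20 (log2, edgeR or DESeq2 adjusted p 0.0707 to 0.281). Without the shared library the total RNA change was -0.24. The nuclear call was lost without control replicate 2, 3 or 4, without IGF2BP1 knockout replicate 2 or in a fit of only the batches of the knockout (log2 -0.36 to -0.17, edgeR adjusted p 0.114 to 0.371), and the change was -0.54 without the shared library and -0.54 without control replicate 1.
In the IGF2BP2 knockout IRS4 rose by 0.35 ± 0.07 (SE, edgeR adjusted p = 0.00198) in total RNA and 0.50 ± 0.04 (SE, edgeR adjusted p = 6.6e-14) in the cytoplasm, with -0.16 ± 0.13 (SE, edgeR adjusted p = 0.332) in nuclear RNA. The total RNA call was lost without control replicate 4 or without IGF2BP2 knockout replicate 2 (log2 0.27 to 0.33, edgeR adjusted p 0.0645 to 0.0657). In the IGF2BP3 knockout IRS4 fell, with log2 changes of -0.27 ± 0.07 (SE, edgeR adjusted p = 0.00956) in total, -0.69 ± 0.13 (SE, edgeR adjusted p = 2.6e-05) in nuclear and -0.21 ± 0.04 (SE, edgeR adjusted p = 5.8e-06) in cytoplasmic RNA. The nuclear call was kept in every alternative. The total RNA call was lost without control replicate 3, without IGF2BP3 knockout replicate 1 or 2 or with upper quartile normalization (log2 -0.32 to -0.14, edgeR adjusted p 0.0564 to 0.173), and the cytoplasmic one with upper quartile normalization (log2 -0.04, edgeR adjusted p 0.288); without IGF2BP3 knockout replicate 2 the latter was -0.14.

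In control cells some members were relatively nuclear and others relatively cytoplasmic. Nuclear and cytoplasmic RNA of the same batch were compared relative to the median gene, since library scaling does not give amounts per cell. The share called was close to that of all tested genes (65.9%), at 6 of the 10 members. IRS4 was the most nuclear of them, with a log2 ratio of nuclear to cytoplasmic RNA of 1.16 ± 0.09 (SE, edgeR adjusted p = 4.1e-11), followed by IGF2R at 0.66 ± 0.06 (SE, edgeR adjusted p = 3.4e-09) and INSR at 0.29 ± 0.07 (SE, edgeR adjusted p = 0.00114). IGF2 was the most cytoplasmic, at -1.27 ± 0.19 (SE, edgeR adjusted p = 4.1e-06). H19 (-0.87 ± 0.30 SE, edgeR adjusted p = 0.0144) and IGFBP4 (-0.49 ± 0.15 SE, edgeR adjusted p = 0.00674) were also relatively cytoplasmic. The H19 call was lost without nuclear control replicate 2 or 3, without cytoplasmic control replicate 2 or 3 or with DESeq2 (log2 -0.85 to -0.77, edgeR or DESeq2 adjusted p 0.0615 to 0.128), and the IGFBP4 call without nuclear control replicate 2 or without cytoplasmic control replicate 2 (log2 -0.37, edgeR adjusted p 0.0717 to 0.0771). IGF1R, IRS1, IRS2 and IGFBP2 had log2 ratios from -0.11 to 0.13 and no call.

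IRS4 RNA became relatively less nuclear, and IGFBP2 RNA relatively more nuclear, in all 3 knockouts. The test was the interaction of fraction and knockout in one edgeR fit, and it called 2 members in the IGF2BP1 knockout, 2 in the IGF2BP2 and 4 in the IGF2BP3 knockout, where 2.99%, 18% and 10.2% of all genes were called. With upper quartile scaling and with DESeq2 the IGF2BP2 knockout had 1 call, lower, in place of 1 higher and 1 lower. The IGF2BP1 count was 0 without cytoplasmic control replicate 2 or without cytoplasmic IGF2BP1 knockout replicate 1 or 2 and 1 without cytoplasmic control replicate 1; the IGF2BP3 count was 2 without cytoplasmic IGF2BP3 knockout replicate 1 and 1 with no batch term. The IGF2BP2 count was 1 without nuclear control replicate 3 or 4, without nuclear IGF2BP2 knockout replicate 2, without cytoplasmic control replicate 1, 2, 3 or 4 or without cytoplasmic IGF2BP2 knockout replicate 1 or 2. With the batch term the IGF2BP2 and IGF2BP3 knockouts share control batches 3 and 4, so their like directions are not independent. The IGF2BP1 knockout was set against control batches 1 and 2. Nuclear IRS4 was 2545, 3030.2, 2931 and 2759 CPM in the controls, 2250.2 and 2077 in the IGF2BP1, 2680.3 and 2415 in the IGF2BP2 and 1655 and 1861 CPM in the IGF2BP3 knockout. The change of the log2 ratio of IRS4 was -0.62 ± 0.13 (SE, edgeR adjusted p = 0.00795), -0.70 ± 0.13 (SE, edgeR adjusted p = 0.000275) and -0.54 ± 0.13 (SE, edgeR adjusted p = 0.00519) in the 3 knockouts in turn. The IGF2BP2 value was called in every alternative. Without the shared library the change in the IGF2BP1 knockout was -0.84. The call there was lost without cytoplasmic control replicate 1 or 2 or without cytoplasmic IGF2BP1 knockout replicate 1 or 2. It was also lost in a fit of only the batches of the knockout (log2 -0.67 to -0.62 over these alternatives). For the IGF2BP3 knockout it was lost without nuclear control replicate 3, without nuclear IGF2BP3 knockout replicate 1, without cytoplasmic IGF2BP3 knockout replicate 1 or with no batch term (log2 -0.49 to -0.37, edgeR adjusted p 0.0555 to 0.111).

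For IGFBP2 the change of the log2 ratio was 0.60 ± 0.11 (SE, edgeR adjusted p = 0.005), 0.35 ± 0.12 (SE, edgeR adjusted p = 0.0366) and 0.70 ± 0.11 (SE, edgeR adjusted p = 0.000195) in the IGF2BP1, IGF2BP2 and IGF2BP3 knockouts. The IGF2BP3 value was called in every alternative. In the IGF2BP1 knockout the change was 0.63 without the shared library. The call there was lost without cytoplasmic control replicate 2 or without cytoplasmic IGF2BP1 knockout replicate 1 or 2. It was also lost in a fit of only the batches of the knockout (log2 0.51 to 0.63 over these alternatives). In the IGF2BP2 knockout it was lost without nuclear control replicate 3 or 4, without nuclear IGF2BP2 knockout replicate 2, without cytoplasmic control replicate 1, 2, 3 or 4, without cytoplasmic IGF2BP2 knockout replicate 1 or 2, with upper quartile normalization, with DESeq2 or with no batch term (log2 0.16 to 0.42, edgeR or DESeq2 adjusted p 0.0506 to 0.455). The IGF2BP3 knockout also had relatively more nuclear IGF2R (0.47 ± 0.10 SE, edgeR adjusted p = 0.00246), a call lost with no batch term (log2 0.37, edgeR adjusted p 0.125). INSR was called there as well (0.41 ± 0.13 SE, edgeR adjusted p = 0.0495, and 0.63 without its nuclear replicate 1), but lost without nuclear control replicate 4, without nuclear IGF2BP3 knockout replicate 2, without cytoplasmic control replicate 1, 2, 3 or 4, without cytoplasmic IGF2BP3 knockout replicate 1 or 2, with upper quartile normalization, with DESeq2 or with no batch term (log2 0.24 to 0.45, edgeR or DESeq2 adjusted p 0.052 to 0.379). The difference of the log2 ratio of IGF2 from control was 0.66 ± 0.35, -0.46 ± 0.32 and -0.55 ± 0.30 in the 3 knockouts with no call, and that of H19 was 0.21 ± 0.63, -0.62 ± 0.56 and -0.53 ± 0.54. The first value was 0.20 for IGF2 and 0.30 for H19 without the shared library. The nuclear marker MALAT1 was 20.8 to 25.3 CPM in control cytoplasm, 29.9 to 34.5 in the IGF2BP1, 75 to 80.3 in the IGF2BP2 and 63.4 to 113 in the IGF2BP3 knockout. MALAT1 was also higher in total RNA, at 166 to 169 CPM in the IGF2BP2 and 264 to 359 in the IGF2BP3 knockout against 83.9 to 99.0. KCNQ1OT1, another nuclear marker, was 2.89 to 5.84 CPM in control cytoplasm and 3.00 to 4.10 in the IGF2BP2 knockout. Its cytoplasmic level was 6.06 to 8.22 CPM in the IGF2BP1 and 7.25 to 8.55 in the IGF2BP3 knockout. The cytoplasmic RNA markers summed to 8404 to 8481 CPM in cytoplasmic and 8018 to 8187 in nuclear RNA of the IGF2BP1 knockout. In the control these sums were 9312 to 10915 and 6798 to 7769 CPM. Whether these nuclear and cytoplasmic markers bear on the ratios was not tested.

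**Figure D5:**
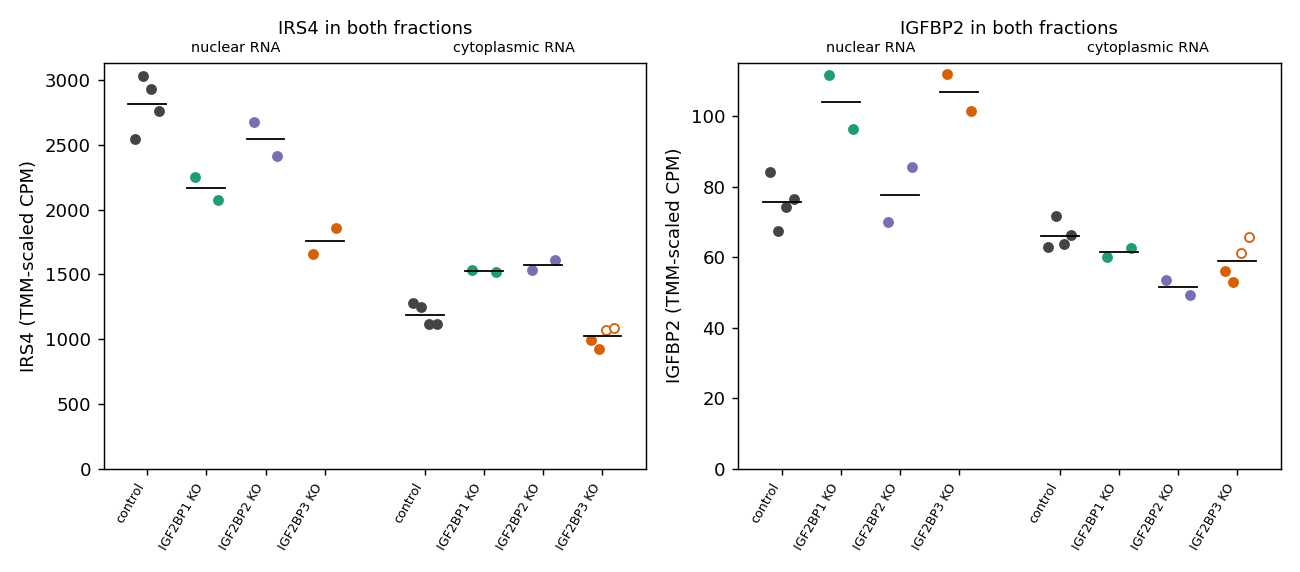
IRS4 and IGFBP2 in nuclear and cytoplasmic RNA, as TMM-scaled CPM from 0, by genotype. Each point is 1 library, open points are batch 5 and lines are group means. IRS4 is lower than control in the nuclei of the IGF2BP1 and IGF2BP3 knockouts and higher than control in the cytoplasm of the IGF2BP1 and IGF2BP2 knockouts.

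The IGF2BP2 and IGF2BP3 knockouts, which shared batches 3 and 4, were then compared directly. IGF2 was higher and IRS1 and IRS4 were lower in the IGF2BP3 knockout in all 3 RNA kinds. The test called 6 members in total, 8 in nuclear and 7 in cytoplasmic RNA, where 43.3%, 48.2% and 62.7% of all genes were called. The total RNA calls were 2 higher and 4 lower in the IGF2BP3 knockout, and 3 and 3 with upper quartile scaling; the nuclear calls were 3 higher and 5 lower, and 3 and 2 with DESeq2. The total count was 3 without IGF2BP2 knockout replicate 1, the nuclear count 3 without IGF2BP2 knockout replicate 1, 4 without IGF2BP3 knockout replicate 1 and 5 without IGF2BP2 knockout replicate 2, and the cytoplasmic count 4 with no batch term. IGF2 differed by log2 1.41 ± 0.17 (SE, edgeR adjusted p = 2.5e-05), 1.09 ± 0.21 (SE, edgeR adjusted p = 3.7e-05) and 1.16 ± 0.08 (SE, edgeR adjusted p = 4.8e-14) in total, nuclear and cytoplasmic RNA. The cytoplasmic call was lost with no batch term (log2 0.62, edgeR adjusted p 0.188), a fit in which the batch 5 libraries enter the mean. IRS1 differed by -1.13 ± 0.14, -1.28 ± 0.15 and -0.98 ± 0.09 (edgeR adjusted p = 3.7e-05, 7.9e-10 and 4.2e-11), kept in every alternative. IRS4 differed by -0.62 ± 0.08, -0.53 ± 0.13 and -0.71 ± 0.04 (edgeR adjusted p = 3.3e-05, 0.000858 and 7.8e-18), and the nuclear call was lost without IGF2BP2 knockout replicate 1 or without IGF2BP3 knockout replicate 1 (log2 -0.44 to -0.39, edgeR adjusted p 0.0875 to 0.0931). IGF2R was higher in the IGF2BP3 knockout by 0.47 ± 0.09 (SE, edgeR adjusted p = 0.00132) in total, 0.54 ± 0.10 (SE, edgeR adjusted p = 1.1e-05) in nuclear and 0.24 ± 0.05 (SE, edgeR adjusted p = 9.4e-05) in cytoplasmic RNA. Its total call was lost without IGF2BP2 knockout replicate 1 or without IGF2BP3 knockout replicate 2 (log2 0.41, edgeR adjusted p 0.0562 to 0.0701), and its cytoplasmic call with no batch term (log2 0.14, edgeR adjusted p 0.245). In the cytoplasm INSR and IGFBP4 were lower in the IGF2BP3 knockout by calls kept in every alternative, at log2 -0.56 ± 0.07 (SE, edgeR adjusted p = 5.2e-09) and -0.46 ± 0.09 (SE, edgeR adjusted p = 2.5e-05). The other calls of this comparison were each lost in 2 or more alternatives. H19 was not called, at 0.41, 0.43 and 0.32.

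Between control batches 3 and 4 and batches 1 and 2, 0 members were called in total RNA, 1 in nuclear and 3 in cytoplasmic RNA, against 2.97%, 16.4% and 26.1% of all genes. The total count was 1 without control replicate 2 and 6 without control replicate 1, the nuclear count 0 without control replicate 1, 3 or 4 and the cytoplasmic count 1 without control replicate 1, 2, 3 or 4. In total RNA 3 members had an unadjusted p under 0.05 in edgeR, DESeq2 called 0, and 1 was called with no filter on low counts. IGF2 differed by -0.58 ± 0.26, -0.31 ± 0.33 and -0.38 ± 0.20 (log2; total, nuclear, cytoplasmic) with no call. Cytoplasmic IRS4 was lower in batches 3 and 4 by 0.18 on the log2 scale (edgeR adjusted p = 0.000356). Nuclear IGF2R was lower there (log2 -0.32 ± 0.10 SE, edgeR adjusted p = 0.0184), a call lost without control replicate 1, 3 or 4 (log2 -0.38 to -0.24, edgeR adjusted p 0.208 to 0.379). The cytoplasmic calls of IGF1R (log2 -0.14 ± 0.05 SE, edgeR adjusted p = 0.0493) and IGF2R (log2 -0.14 ± 0.05 SE, edgeR adjusted p = 0.042) were lost without any 1 of the 4 control replicates, with upper quartile normalization or with DESeq2 (edgeR or DESeq2 adjusted p 0.0548 to 0.623).
The IGF2BP3 knockout differed more between its own batches. In cytoplasmic RNA, batch 5 differed from batches 3 and 4 in 7 of 10 members (3 higher and 4 lower), where 55% of all genes were called. That count was 3 without IGF2BP3 knockout replicate 3 and 4 without IGF2BP3 knockout replicate 2, and 4 with DESeq2. With upper quartile scaling, which moved the median of all genes by -0.16, the split was 0 higher and 6 lower. IGF2 was lower in batch 5 (log2 -1.42 ± 0.09 SE, edgeR adjusted p = 2.2e-15), kept in every alternative. H19 was lower too (log2 -0.77 ± 0.24 SE, edgeR adjusted p = 0.00743), a call lost without IGF2BP3 knockout replicate 2 or 3 or with DESeq2 (log2 -0.77 to -0.55, edgeR or DESeq2 adjusted p 0.132 to 0.161). The calls of IGF2R (-0.20 ± 0.05), INSR (-0.22 ± 0.07), IGFBP2 (0.22 ± 0.05), IRS2 (0.23 ± 0.09) and IRS4 (0.17 ± 0.04) were small and each was lost in 1 or more alternatives (edgeR or DESeq2 adjusted p 0.051 to 0.46), among them the fits without replicate 1 (INSR), 2 (IRS2, IRS4), 3 (IGF2R, INSR, IRS2) or 4 (IRS2). IGFBP4 did not pass the test, at -0.08 ± 0.10. Batch 5 held no control, so a batch effect and a change of the clone cannot be told apart. Without its libraries the IGF2BP3 knockout had 8 cytoplasmic members called (4 higher, 4 lower), with IGF2 at 3.29.

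Other genes of the pathway were read from 6 lists, in cytoplasmic RNA, which holds no shared library. For some lists the split into higher and lower differed in total or nuclear RNA, and examples are given below. The background there is the 44.4%, 64.2% and 64.7% of all genes called in the IGF2BP1, IGF2BP2 and IGF2BP3 knockouts. Of 18 further ligands, binding proteins, proteases and receptors, 12 were tested. The calls were 1 higher and 3 lower of 12 in the IGF2BP1, 6 higher and 4 lower of 12 in the IGF2BP2 and 7 higher and 3 lower of 12 in the IGF2BP3 knockout. The 4 calls of the IGF2BP1 knockout became 2 without control replicate 2 or IGF2BP1 knockout replicate 2 and 1 with no batch term. The median log2 change of the list was -0.06, 0.47 and 0.43 in the 3 knockouts, beside 0.011, 0.013 and 0.025 over all genes. Of the 12, IGFBP3, PAPPA2 and STC1 reached the filter's cutoff in 0 control libraries and passed it through the knockouts, so the counts and medians only describe the list. IGFBP7, a related secreted protein that binds IGFs weakly, was 0.938, 1.29, 0.389 and 0.766 CPM in the controls and 3.95 and 3.63 CPM in the IGF2BP2 knockout. It rose there by 2.69 ± 0.29 (SE, edgeR adjusted p = 5.2e-10) and in the IGF2BP3 knockout by 3.26 ± 0.26 (SE, edgeR adjusted p = 6.8e-13) on the log2 scale. IGFBP6, which prefers IGF2 among its ligands, rose in the IGF2BP3 knockout by 1.73 ± 0.26 (SE, edgeR adjusted p = 5.9e-07). STC1, a secreted inhibitor of the pappalysin proteases that cut IGFBP4, was 0.0521, 0.149, 0.13 and 0.412 CPM in the controls, from 1 to 7 counts, and 4.55, 4.74, 2.72 and 2.43 CPM in the IGF2BP3 knockout. Since STC1 passed the filter only through knockout libraries, these values only describe the libraries, and no fold or test is given.

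Genes inside the cell moved in both directions, and of those below only SOCS1 and SPRY4 passed the filter through the knockouts. Of 21 adaptors, phosphatases and brakes at the receptor, all tested, the calls were 11 higher and 4 lower of 21, 8 higher and 11 lower of 21 and 6 higher and 10 lower of 21 in the IGF2BP1, IGF2BP2 and IGF2BP3 knockouts. GRB14, an adaptor that inhibits the insulin receptor, fell in all 3 knockouts, with log2 changes of -1.01 ± 0.15 (SE, edgeR adjusted p = 8.8e-07), -0.91 ± 0.14 (SE, edgeR adjusted p = 6.5e-07) and -1.96 ± 0.16 (SE, edgeR adjusted p = 5.4e-13). SOCS3, a feedback inhibitor of cytokine receptors and IRS proteins, rose in the IGF2BP3 knockout by 1.69 ± 0.28 (SE, edgeR adjusted p = 2.7e-06), as did the docking protein gene DOK4 by 0.98 ± 0.09 (SE, edgeR adjusted p = 2.5e-11). Of 30 PI3K, AKT and mTOR genes the calls were 12 higher and 5 lower of 29 tested, 5 higher and 13 lower of 29 and 5 higher and 15 lower of 29 in the same order. FOXO4, a transcription factor that AKT restrains, rose in the IGF2BP3 knockout (log2 1.53 ± 0.05 SE, edgeR adjusted p = 1.9e-22) and fell in the IGF2BP1 knockout (log2 -0.34 ± 0.07 SE, edgeR adjusted p = 5.7e-05). In the cytoplasm the mTOR inhibitor gene DEPTOR fell in all 3 knockouts, with log2 changes of -0.77 ± 0.14 (SE, edgeR adjusted p = 4.0e-05), -1.33 ± 0.14 (SE, edgeR adjusted p = 2.7e-10) and -0.70 ± 0.12 (SE, edgeR adjusted p = 8.9e-06). Only in the IGF2BP2 knockout was DEPTOR called lower in total, nuclear and cytoplasmic RNA alike. AKT1S1, which encodes the mTORC1 inhibitor PRAS40, fell in the IGF2BP3 knockout (log2 -0.88 ± 0.05 SE, edgeR adjusted p = 3.6e-16). The PI3K, AKT and mTOR list split otherwise outside the cytoplasm of the IGF2BP1 knockout. With the shared library it had 4 higher and 10 lower of 30 in total RNA and 5 higher and 4 lower of 30 in nuclear RNA. Of all genes, 24.2% and 25.7% were called there.

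Of 19 RAS and MAP kinase genes, all tested, the calls were 9 higher and 1 lower of 19, 6 higher and 12 lower of 19 and 5 higher and 6 lower of 19 in the 3 knockouts in turn. SPRY2, a feedback inhibitor of receptor tyrosine kinase signalling, rose in each. It was 7.98, 7.58, 8.24 and 6.95 CPM in control cytoplasm, 19.6 and 20.8 in the IGF2BP1, 19.8 and 18 in the IGF2BP2 and 18.9, 20.3, 21.9 and 20.8 CPM in the IGF2BP3 knockout, without overlap with the controls. The log2 changes were 1.38 ± 0.10 (SE, edgeR adjusted p = 3.4e-13), 1.32 ± 0.11 (SE, edgeR adjusted p = 5.2e-13) and 1.38 ± 0.10 (SE, edgeR adjusted p = 1.3e-13). In the cytoplasm the kinase gene BRAF rose in the IGF2BP1 and IGF2BP2 knockouts (log2 0.76 ± 0.06 SE, edgeR adjusted p = 1.5e-12 and 1.35 ± 0.06 SE, edgeR adjusted p = 3.4e-20). Only in the IGF2BP2 knockout was BRAF called higher in total, nuclear and cytoplasmic RNA alike. RPS6KA3, the kinase RSK2 downstream of ERK, fell in the IGF2BP3 knockout (log2 -1.32 ± 0.06 SE, edgeR adjusted p = 1.6e-19). The RAS and MAP kinase list split otherwise outside the cytoplasm of the IGF2BP2 knockout. It had 7 higher and 1 lower of 19 in nuclear RNA and 4 higher and 2 lower of 19 in total RNA. Of all genes, 49.7% and 47% were called there.

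Of 22 imprinted genes, 11p15 neighbours of IGF2 and H19 included, 12 were tested. The calls were 5 higher and 1 lower of 12 in the IGF2BP1, 4 higher and 5 lower of 12 in the IGF2BP2 and 7 higher and 4 lower of 12 in the IGF2BP3 knockout. In the first, the 6 calls became 2 or 3 without any 1 of control replicates 1 and 2 and the 2 IGF2BP1 knockout replicates, and 2 with no batch term. In the last, the 11 calls became 7 without IGF2BP3 knockout replicate 2 and with no batch term. CDKN1C, an imprinted cell cycle inhibitor of the neighbouring 11p15 domain, rose in the IGF2BP2 and IGF2BP3 knockouts, by 0.81 ± 0.18 (SE, edgeR adjusted p = 0.000261) and 1.77 ± 0.16 (SE, edgeR adjusted p = 9.3e-12) on the log2 scale, from 2.19, 2.28, 2.4 and 2.36 CPM in the controls. KCNQ1, the potassium channel gene of that domain, changed by 0.58 ± 0.20 (edgeR adjusted p = 0.0133) and 0.80 ± 0.20 (edgeR adjusted p = 0.000613) in these 2 knockouts. The first KCNQ1 call was lost without control replicate 4, without IGF2BP2 knockout replicate 1 or with DESeq2 (log2 0.32 to 0.58, edgeR or DESeq2 adjusted p 0.0885 to 0.307), and the second without control replicate 4, without IGF2BP3 knockout replicate 2 or with no batch term (log2 0.54 to 0.85, edgeR adjusted p 0.0503 to 0.077). PLAGL1, an imprinted zinc finger factor described as acting at the IGF2 and H19 locus, fell in the IGF2BP3 knockout (log2 -0.81 ± 0.05 SE, edgeR adjusted p = 8.2e-16) and rose in the IGF2BP2 knockout (log2 0.33 ± 0.05 SE, edgeR adjusted p = 2.1e-07). The fall was called in all 3 RNA kinds and the rise was not. Of 15 factors described as acting on IGF2 or H19, the targeted genes included, the calls were 5 higher and 4 lower of 13, 2 higher and 10 lower of 13 and 0 higher and 11 lower of 13. HMGA2, an oncofetal chromatin protein that promotes IGF2BP2 transcription, fell in the cytoplasm of all 3 knockouts, with log2 changes of -1.52 ± 0.05 (SE, edgeR adjusted p = 1.1e-22), -0.40 ± 0.04 (SE, edgeR adjusted p = 9.6e-10) and -0.61 ± 0.04 (SE, edgeR adjusted p = 5.4e-14). It was called lower in all 3 RNA kinds in the IGF2BP1 and IGF2BP3 knockouts but not in the IGF2BP2 knockout. IGF2BP1 RNA was lower in the cytoplasm of the IGF2BP2 and IGF2BP3 knockouts as well, at -0.63 ± 0.04 (SE, edgeR adjusted p = 8.5e-17) and -0.65 ± 0.04 (SE, edgeR adjusted p = 3.6e-17).

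The genes whose profile over the 10 total RNA libraries was most like that of IGF2 were DCHS1 (Pearson r = 0.988) and SAMD14 (0.988) among 15313 genes with a mean of at least 1 CPM, on log2(CPM + 1). These are descriptions: the libraries fall into 4 genotypes, 1 of them is the library also deposited as nuclear RNA, and no p is given. For IGFBP4 the closest were FOS (0.987) and CUL9 (0.984), for IRS1 ENSG00000213963 (0.979) and DENND11 (0.978) and for IRS4 ZNF793 (0.984) and THEM4 (0.977). For IGF1R they were GPATCH8 (0.970) and ZNF592 (0.968), for IGF2R MT-RNR1 (0.989) and CASC3 (0.984), for INSR GPSM1 (0.970) and IPO9 (0.964), for IGFBP2 SLC35B2 (0.990) and SEC61B (0.987) and for H19 GDF9 (0.981) and ZNF433 (0.966).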

How the data were processed

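Gene counts and FPKM of the 32 libraries were deposited by the authors as one count table and one FPKM table for each RNA kind. Libraries were poly(A)-selected, stranded and read as pairs, per the labels' protocols. STAR, featureCounts, DESeq2 1.44.0 and GRCh38 are named, without roles, per the submitters' processing notes; the annotation, the strand setting and the treatment of ambiguous reads are not given in the sources used here. The deposited count tables hold raw counts for 62703 identifiers, of which 58279 are in GENCODE 29, used here for coordinates and exon lengths. The deposited FPKM values were computed by the authors with the whole gene span as length, as the values themselves show, and were not used for levels.

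Counts were scaled with TMM, filtered with filterByExpr (minimum count 10) and tested with the quasi-likelihood test of edgeR 4.0.16 (R 4.3.3, limma 3.58.1) with batch as a term. One fit per RNA kind held all its libraries, and nuclear and cytoplasmic libraries of batches 1 to 4 shared a fit for changes of their ratio. Each adjusted p is over all genes tested. edgeR's biological coefficient of variation came to 7.87% (total), 6.88% (nuclear) and 2.89% (cytoplasmic RNA). These fits had 3, 3 and 4 residual degrees of freedom. Library totals of 13689067 to 26119480 put 3 counts, the limit that a count of 0 allows, between 0.115 and 0.219 CPM before TMM scaling, for counting error only. The labels do not say that replicates came from separate cultures, so p-values measure only the spread between these libraries. The fits were tested on simulated data.

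Batches come from the labels, so control and knockout libraries of one batch were treated as paired. Their deviations from the group means had correlations of -0.113 to 0.0154. Batch 5 has no control, and with the batch term its level does not enter the fold changes against control. It adds to the estimate of the spread for every cytoplasmic test, and to the filter and scaling of that fit.

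The members and lists were chosen with earlier results of these data known. Named besides the members were, per list, up to 3 genes called in 1 direction in all RNA kinds of a knockout with a mean of at least 1 CPM, by the size of their total RNA change, and the 2 most alike genes for each member; those for IRS2 are not reported here. Alternatives were RLE and upper quartile scaling, DESeq2 1.42.0, no filter, no batch term, only the batches of the knockout, no batch 5, and each library left out. Sequences are from RefSeq, GRCh38.p14.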

Additional observations from a re-analysis of the deposited data

Results flagged for a closer look

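The changes of the nuclear to cytoplasmic ratio that passed the edgeR test are differences of a knockout effect between 2 cell fractions, and 8 of them were called. The ratio of IRS4 shifted by -0.62 in the IGF2BP1, -0.70 in the IGF2BP2 and -0.54 in the IGF2BP3 knockout on the log2 scale. That of IGFBP2 shifted by 0.60, 0.35 and 0.70 in the same order. In the IGF2BP3 knockout the ratios of IGF2R (0.47) and INSR (0.41) shifted up too. There cytoplasmic RNA of both fell (-0.36 and -0.39), while their nuclear changes (0.17 and 0.08) were not called. IRS4 fell in both fractions of that knockout (nuclear -0.69, cytoplasmic -0.21). The INSR ratio call (edgeR adjusted p = 0.0495) and others were lost in alternatives given above. With the batch term the IGF2BP1 knockout was set against control batches 1 and 2. The other 2 knockouts were set against control batches 3 and 4. The nuclear marker RNAs summed to 138 to 161 CPM in control cytoplasm and to 175 to 178, 591 to 608 and 275 to 702 CPM in that of the 3 knockouts, and their part in these shifts was not tested. In 40 groups of 4 libraries, 1 for each member, RNA kind and group of that size, no single library stood apart from the other 3 beyond Dixon's criterion. In cytoplasmic RNA of the IGF2BP3 knockout those 4 libraries are 2 from batches 3 and 4 and 2 from batch 5, and the criterion cannot detect a split of 2 against 2.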

How the results depend on the processing

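Of 2435 alternative values of the members, 2216 kept direction and side of the threshold, 164 lost a call, 54 gained one and 1 turned with a call. That one was IGFBP2 between control batches in total RNA, which ran from -0.42 to 0.30 as single libraries were left out. For the named pathway genes 1864 of 2031 values kept theirs, 130 lost a call, 36 gained one, and BRAF in cytoplasmic RNA of the IGF2BP3 knockout turned, from -0.02 to 0.15 (edgeR adjusted p = 0.039), with upper quartile scaling. Of 245 counts of members called, 198 stayed within 1.5 times, as did 558 of 678 list counts.

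The fit with no replicate block, that is unpaired by batch, gave 4 in place of 7 members for the IGF2BP3 against the IGF2BP2 knockout in cytoplasmic RNA and 1 in place of 4 for the ratio in the IGF2BP3 knockout. Upper quartile scaling gave 8 for nuclear RNA of the IGF2BP3 knockout, 1 for the ratio in the IGF2BP2 knockout and 1 for the control batches in cytoplasmic RNA. DESeq2 gave 5 for the nuclear comparison of the IGF2BP3 with the IGF2BP2 knockout, 1 for the control batches in cytoplasmic RNA, 4 for batch 5 and 1 for the ratio in the IGF2BP2 knockout. With no filter, 1 member differed between control batches in total RNA. In only the knockout's own batches, the ratio in the IGF2BP1 knockout had 0 calls. The causes were not tested.

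With each library left out, the count of members in total RNA ran from 3 to 7 for IGF2BP1, 4 to 9 for IGF2BP2, 3 to 4 for IGF2BP3 against IGF2BP2 and 0 to 6 for the control batches. In nuclear RNA it ran from 3 to 4 for IGF2BP1, 3 to 6 for IGF2BP3 against IGF2BP2 and 0 to 1 for the control batches. In cytoplasmic RNA it was 1 throughout for the control batches and 3 to 7 for batch 5. For the ratio it ran from 0 to 2, 1 to 3 and 2 to 4 in the 3 knockouts in turn. Depth limits the precision of H19 and IGF2, which had 6 to 72 counts per control library.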
